A study of Homo sapiens with 8 samples.

Results

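The genes described here are HOXA3, HOXA5, HOXA6, HOXA7, HOXA9, HOXA10, HOXA11, MEIS1, PBX3 and MEF2C, a set known from leukemia with a rearranged KMT2A gene. The members were chosen by symbol, so they are 10 of the 60664 genes in the deposited table, and all 10 were found there. Of the members, 7 reached 1 FPKM (reads counted on a gene, scaled to its length and to the depth of the library) in at least 2 of the 8 libraries and were among the 14899 genes tested, while HOXA3, HOXA7 and MEIS1 reached 1 FPKM in no library. RNA was sequenced from THP-1 cells, a human acute monocytic leukemia line, in 4 groups of 2 libraries labelled as biological replicates. Parental cells and decitabine-resistant cells (DAC-resistant) were each given DMSO, the solvent, or 1 µM decitabine (DAC) for 6 days. All groups carry the genotype label WT. The DAC-resistant cells are survivors of repeated pulses of DAC, a selected population for which the study describes no cloning, and they were kept without the drug before the experiment, so resistance, selection and earlier exposure to DAC cannot be told apart. The source of each replicate is not described further, and the p-values measure only the spread between these libraries.

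HOX genes encode homeodomain transcription factors and lie in clusters, in which the order of the genes along the chromosome follows the order of their use along the body axis. In blood, the central and posterior HOXA genes are active in stem and progenitor cells and are shut down as cells mature. Fusion proteins made by a rearranged KMT2A gene hold HOXA9 and MEIS1 active, and HOXA9 binds DNA together with proteins of the TALE class such as MEIS1 and PBX3. THP-1 is known to carry a fusion of KMT2A and MLLT3. The fusion transcript was not analysed here, since the values are sums over whole genes. DAC is built into DNA, where it traps the enzymes that methylate cytosines in CpG pairs.

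The 7 HOXA members lie within a small stretch of chromosome 7 on the minus strand (hg38, gene bounds of GENCODE release 44), from HOXA3 at chr7:27106184-27152583 to HOXA11 at chr7:27181157-27185232. HOXA9 spans chr7:27162438-27175180 and HOXA10 spans chr7:27170605-27180261. MEIS1 lies at chr2:66433452-66573869 on the plus strand, PBX3 at chr9:125747345-125967377 on the plus strand, and MEF2C at chr5:88717117-88904257 on the minus strand. The promoter bases of 4 members are shown, because 3 of them are the most abundant posterior HOXA members and the last is the member with hardly any reads in DAC-resistant cells. Each is the 250 bases before the start of the gene's MANE transcript in RefSeq (GRCh38.p14), 5′ to 3′ on the strand of the gene. By the bounds given, the windows of HOXA9, HOXA10 and MEIS1 lie inside their genes. Capitals mark CpG pairs, the sites at which DNA methylation occurs. None of the 4 windows overlaps an annotated UTR, but that of HOXA11 overlaps exons of the antisense gene HOXA11-AS and of an unnamed gene. The HOXA9 window is chr7:27165538-27165787, the HOXA10 window is chr7:27174321-27174570, the HOXA11 window is chr7:27185233-27185482, and the MEIS1 window is chr2:66434875-66435124.
HOXA9: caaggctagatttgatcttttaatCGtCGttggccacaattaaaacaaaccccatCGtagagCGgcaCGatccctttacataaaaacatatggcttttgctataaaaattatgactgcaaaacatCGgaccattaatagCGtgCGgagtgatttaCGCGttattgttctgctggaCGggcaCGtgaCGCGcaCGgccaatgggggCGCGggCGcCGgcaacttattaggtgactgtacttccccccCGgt
HOXA10: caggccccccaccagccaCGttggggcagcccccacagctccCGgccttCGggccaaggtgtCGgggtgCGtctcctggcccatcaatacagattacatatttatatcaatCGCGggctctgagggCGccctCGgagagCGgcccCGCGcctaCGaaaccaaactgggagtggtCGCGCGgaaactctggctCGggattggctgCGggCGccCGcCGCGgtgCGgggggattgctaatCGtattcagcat
HOXA11: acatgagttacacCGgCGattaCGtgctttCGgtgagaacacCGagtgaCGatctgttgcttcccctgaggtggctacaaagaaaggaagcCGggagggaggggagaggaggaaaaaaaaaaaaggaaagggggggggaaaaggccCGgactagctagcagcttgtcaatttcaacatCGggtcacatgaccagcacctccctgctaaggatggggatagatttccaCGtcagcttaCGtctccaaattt
MEIS1: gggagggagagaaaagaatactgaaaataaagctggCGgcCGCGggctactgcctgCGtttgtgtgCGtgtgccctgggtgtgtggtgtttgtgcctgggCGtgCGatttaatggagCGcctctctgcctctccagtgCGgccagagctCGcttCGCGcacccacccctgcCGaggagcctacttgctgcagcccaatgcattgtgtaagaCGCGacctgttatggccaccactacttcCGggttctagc

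CpG pairs numbered 20 in the HOXA9 window, 24 in that of HOXA10, 11 in that of HOXA11 and 16 in that of MEIS1, beside a median of 11 over the 35116 promoter windows of the same length. The window of PBX3, which ends 810 bases inside the gene counted from the start of its MANE transcript, held 36. A window was found for 9 of the 10 members, all but HOXA5. The letters TGATNNAT, of the kind that HOX and PBX proteins bind together, were searched on both strands and occurred in 0 of the 9 member windows and in 6.47% of all windows. TGACAG, the core bound by MEIS proteins, occurred among the members only in this PBX3 window, and in 13% of all windows. DNA methylation and binding of factors were not measured in these libraries.

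The libraries were scaled by the authors to totals between 27480502 and 31916835 reads, and the reads behind each value were recovered from the steps that whole reads leave. All 12 monocytic markers of the list reached 1 FPKM, with a summed level of 479 to 507 FPKM in parental cells under DMSO, 554 to 567 under DAC, 428 to 443 in DAC-resistant cells under DMSO and 415 to 432 under DAC. Of the T and NK markers 1 of 7 did, their sum was 5.15 to 6.19, 16.9 to 17.7, 2.05 to 2.76 and 1.68 to 2.74 FPKM in the same order of groups, and CD3D, CD3G and CD2 were at 0 in all 6 libraries other than those of parental cells with DAC. In 3 DAC-resistant libraries (DMSO replicate 2 and both DAC replicates) the immunoglobulin gene IGKC stood at 27.6 to 48.3 FPKM and IGHG1 at 5.50 to 12.1, against 0.603 to 1.32 and 0.0228 to 0.263 in the other 5. Of other B and plasma cell genes, MS4A1 was at 0.0263 FPKM or less in those 3 libraries and 0 to 0.488 in the other 5, CD79A at 0.0699 to 0.322 and 0.0236 to 0.92, and MZB1 at 0.364 to 0.657 and 0.0138 to 0.525. The summed level of the 9 B and plasma cell markers analysed here was therefore 8.13 and 41.6 FPKM in DAC-resistant cells under DMSO and 42.5 and 68.2 under DAC, beside 5.04 to 12.3 in the parental libraries. Erythroid markers summed to 0.398 to 0.668, 3.72 to 4.21, 0.273 to 2.97 and 0 to 0.0306 FPKM in the 4 groups in the same order, and stromal and epithelial markers to 0.754 to 0.869, 6.43 to 7.51, 6.32 to 6.40 and 4.91 to 4.93. Members are also given without the DMSO library concerned where the cell lines are compared under DMSO. Of the calls among the related genes described after the members, 37 of 45 between the cell lines with DMSO still passed without that library, as did 4 of 9 for DAC in DAC-resistant cells and 30 of 36 for the difference of DAC effects, and none changed sign. Both DAC libraries of DAC-resistant cells are concerned, so no value could be given without them.

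Among the members, PBX3 and HOXA9 were the most abundant and MEIS1 the least. The mean level over the 8 libraries was 47.2 FPKM for PBX3 and 40.0 for HOXA9, above 94.97% and 93.8% of the genes tested. HOXA10 followed at 23.8 FPKM, MEF2C at 16.3, HOXA11 at 10.4, HOXA5 at 4.44 and HOXA6 at 1.20. HOXA3, HOXA7 and MEIS1 had means of 0.287, 0.230 and 0.0871 FPKM. This order was the same in every group, except that HOXA9 stood above PBX3 in parental cells with DAC and HOXA7 above HOXA3 in parental cells with DMSO. Neighbours in the order did not overlap within a group, apart from HOXA3 and HOXA7 in both DMSO groups. The name of the set as a HOXA and MEIS1 program therefore fits its HOXA9, HOXA10 and PBX3 levels here, but not MEIS1, which never exceeded 0.236 FPKM.

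**Figure D1:**
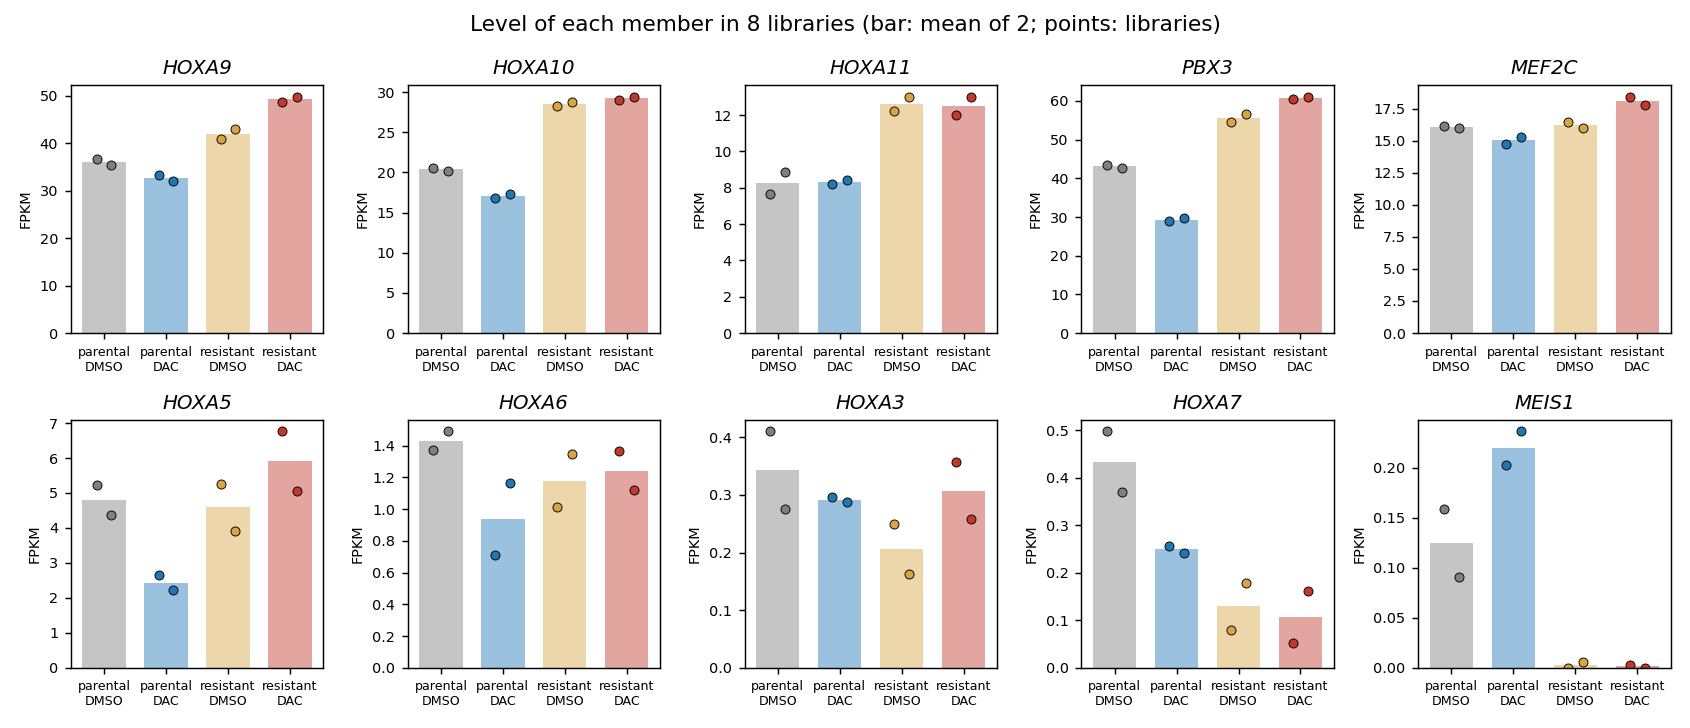
Level of each member in FPKM (vertical axis, starting at 0, its own scale per panel) in the 4 groups. Bars are means of 2 libraries and points are the libraries, and in the PBX3 panel the 2 points of parental cells with DAC lie below all others, at 28.9 and 29.6 FPKM, while in the MEIS1 panel the DAC-resistant points lie at or near 0.

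HOXA9, the homeodomain factor most closely tied to this kind of leukemia, stood in parental cells at 36.7 and 35.5 FPKM under DMSO and at 33.4 and 32.05 under DAC, and in DAC-resistant cells at 40.9 and 43.0 under DMSO and at 48.7 and 49.8 under DAC. The 4 groups did not overlap, with parental cells given DAC lowest and DAC-resistant cells given DAC highest. HOXA10, its neighbour in the cluster, stood at 20.5 and 20.2, 16.8 and 17.3, 28.3 and 28.7, and 29.0 and 29.4 FPKM in the same order of groups. Its groups were ranked as for HOXA9, with a narrow gap between the 2 DAC-resistant groups. HOXA11, the next gene of the cluster, stood at 7.67 and 8.85, 8.22 and 8.43, 12.24 and 12.98, and 11.99 and 13.02 FPKM. Its libraries fell into a lower parental and a higher DAC-resistant set, and within each set the DMSO and DAC libraries overlapped. Reads of HOXA9 and HOXA10 in exons of a readthrough gene that joins them (15.9% and 9.93% of their exon bases are shared with this gene or with a microRNA) may have been assigned to neither, since the readthrough gene is listed at 0 in all libraries.

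HOXA5, a central member of the cluster known to act in myeloid differentiation, stood in parental cells at 5.23 and 4.37 FPKM under DMSO and at 2.64 and 2.22 under DAC, and in DAC-resistant cells at 5.27 and 3.93 under DMSO and at 6.76 and 5.07 under DAC. Only the parental DAC libraries stood apart, below the other 6. HOXA6 stood at 1.37 and 1.49, 0.708 and 1.16, 1.01 and 1.35, and 1.37 and 1.12 FPKM, from 25 to 58 reads per library. Its parental DMSO libraries lay above those with DAC and above the DAC-resistant DMSO libraries, and both DAC-resistant groups overlapped. HOXA3 stood at 0.410 and 0.276, 0.296 and 0.287, 0.250 and 0.162, and 0.356 and 0.258 FPKM, from 21 to 56 reads. Both DAC-resistant DMSO libraries lay below the other 6, by a narrow gap, and the other groups overlapped one another. HOXA7 stood at 0.497 and 0.369, 0.256 and 0.241, 0.0788 and 0.179, and 0.0520 and 0.163 FPKM, from 4 to 38 reads. Both parental groups lay above both DAC-resistant groups, which overlapped each other. Strand use in the counting is not given in the sources used here. Opposite the antisense gene HOXA-AS3 lie 62.5% of the exon bases of HOXA7 and 39.3% of those of HOXA6. Reads there may have been assigned to neither gene. Smaller parts of other members also lie opposite antisense genes, 27.2% for HOXA11, 17.3% for HOXA3, 16.4% for HOXA10, 13.9% for HOXA9 and 13.3% for MEIS1.

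PBX3, a TALE partner of HOXA9 on DNA, stood in parental cells at 43.4 and 42.8 FPKM under DMSO and at 28.9 and 29.6 under DAC, and in DAC-resistant cells at 54.4 and 56.6 under DMSO and at 60.4 and 61.1 under DAC. The 4 groups did not overlap and had the same order as for HOXA9. MEF2C, a MADS-box factor that KMT2A fusions also keep active, stood at 16.1 and 16.0, 14.8 and 15.3, 16.4 and 16.0, and 18.4 and 17.8 FPKM. Its DMSO libraries were nearly level in both cell lines, with the DAC libraries below them in parental cells and above them in DAC-resistant cells. PBX3 shares no exon base with another gene of the annotation, and MEF2C 5.76% of its exon bases with antisense genes.

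MEIS1, the other TALE partner, stood at 0.159 and 0.0904 FPKM in parental cells under DMSO and at 0.203 and 0.236 under DAC. In DAC-resistant cells it stood at 0 and 0.00608 with DMSO and at 0.00286 and 0 with DAC. The recovered reads were 55 and 30, 61 and 71, 0 and 2, and 1 and 0 in the same order. All 4 parental libraries thus held 30 reads or more, and all 4 DAC-resistant libraries 2 or fewer, where a count of 0 allows up to 3 reads (counting error only). MEIS1 RNA was thus scarce in parental cells too, beside 2671 to 4716 HOXA9 reads per library.

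**Figure D2:**
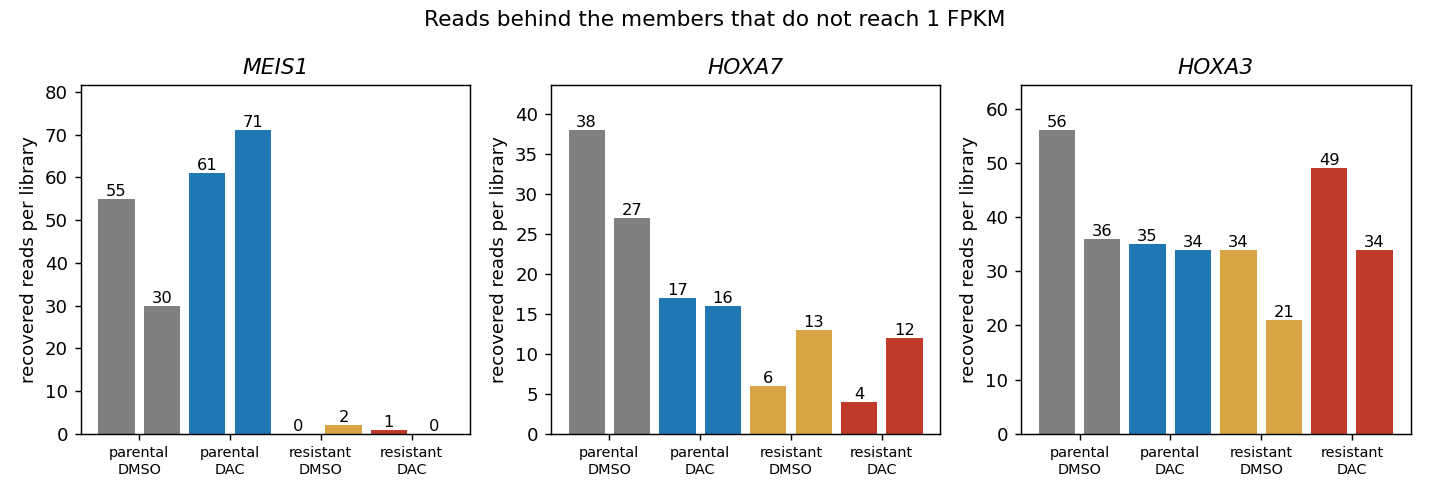
Recovered reads per library (vertical axis, starting at 0, number above each bar) for the 3 members that reached 1 FPKM in no library, by group, with 1 bar per library. MEIS1 had 30 to 71 reads in parental and 0 to 2 in DAC-resistant libraries, HOXA7 had 16 to 38 and 4 to 13, and the HOXA3 bars overlap between the cell lines.

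To see how the set responded to DAC in cells not selected with it, parental cells with DAC were compared with parental cells with DMSO. Of the 7 members tested, 4 fell (PBX3, HOXA5, HOXA10 and HOXA9) and none rose, at a Benjamini-Hochberg adjusted p under 0.05 in limma on log2(FPKM + 1). In this comparison 57.7% of all genes tested were called, 33.6% as higher and 24.1% as lower. PBX3 fell by 0.54 on the log2 scale (SE 0.028, adjusted p = 1.26e-05), to 68.0% of its DMSO mean, and HOXA5 fell by 0.76 (SE 0.16, adjusted p = 0.00749), to 50.7%. HOXA10 fell by 0.24 (SE 0.030, adjusted p = 0.000531) and HOXA9 by 0.14 (SE 0.037, adjusted p = 0.017), which left them at 83.6% and 90.6% of their DMSO means. HOXA6 (-0.34, SE 0.15, adjusted p = 0.0855), MEF2C (-0.09, SE 0.036, adjusted p = 0.068) and HOXA11 (0.01, 95% interval -0.16 to 0.19, adjusted p = 0.893) did not pass the test. The median over the 7 members was -0.24, beside 0.06 over all genes tested. In bulk RNA, fewer cells that express a gene and less RNA per cell cannot be told apart.

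The fall of HOXA5 and that of HOXA9 each depended on a library. Without parental DAC replicate 2, HOXA5 changed by -0.67 (adjusted p = 0.0563) and HOXA9 by -0.11 (adjusted p = 0.0862), and without parental DMSO replicate 1, HOXA9 changed by -0.11 (adjusted p = 0.0879). HOXA10 and PBX3 passed the test with any 1 library left out. No member changed by 1 or more in size at an unadjusted p of at most 0.01, a stricter rule that 9.31% of the genes met. For the low members, the fit without a filter on low values gave -0.05 for HOXA3 (adjusted p = 0.718), -0.20 for HOXA7 (adjusted p = 0.181) and 0.12 for MEIS1 (adjusted p = 0.0727). The scale understates changes at such levels, and in reads MEIS1 went from 85 to 132 summed over 2 libraries, a ratio per read sequenced of 1.75 with a 95% exact interval of 1.32 to 2.33 that covers counting error only. HOXA7 went from 65 to 33 reads, a ratio of 0.573 (interval 0.365 to 0.884), and HOXA3 from 92 to 69, a ratio of 0.846 (interval 0.610 to 1.17). In libraries, 7 of the 10 members lay lower with DAC without overlap and MEIS1 higher, where 34.5% and 44.9% of the genes tested did. All 12 monocytic markers changed in the same comparison, 9 upward and 3 downward, with a median of 0.71, led by CD14 (3.05, adjusted p = 5.39e-06), CEBPE (2.53, adjusted p = 2.34e-05) and LYZ (1.91, adjusted p = 2.33e-05). Summed T and NK, erythroid, stromal and B and plasma cell markers were also higher in the DAC libraries (ranges as given for each marker list). The part of these markers in the changes of the members was not tested.

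Among DAC-resistant cells, DAC was compared with DMSO in the same way. Of the 7 members, 3 rose (HOXA9, MEF2C and PBX3) and none fell, where 11.2% of the genes tested were called, 5.88% as higher and 5.35% as lower. HOXA9 rose by 0.23 (SE 0.037, adjusted p = 0.0145), to 117% of its DMSO mean. MEF2C rose by 0.15 (SE 0.036, adjusted p = 0.0446) and PBX3 by 0.13 (SE 0.028, adjusted p = 0.0376), to 112% and 109%. HOXA10 (0.04, 95% interval -0.04 to 0.11, adjusted p = 0.513) and HOXA11 (-0.01, interval -0.19 to 0.16, adjusted p = 0.951) did not pass the test. HOXA5 (0.30, interval -0.09 to 0.70, adjusted p = 0.299) and HOXA6 (0.04, interval -0.30 to 0.39, adjusted p = 0.897) had wider intervals. The members' median was 0.13, beside 0.01 over all genes.

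These rises were small and close to the threshold, and none passed with only the libraries compared or with variances without a trend. With any 1 library left out, PBX3 (adjusted p = 0.0529 to 0.171) and MEF2C (adjusted p = 0.0587 to 0.183) no longer passed. HOXA9 did not pass without DMSO replicate 1 (0.19, adjusted p = 0.0791), DAC replicate 1 (0.24, adjusted p = 0.0607) or DAC replicate 2 (0.21, adjusted p = 0.0905) of the DAC-resistant cells. The stricter rule, met by 0.235% of the genes, was met by no member. MEIS1 had 2 reads with DMSO and 1 with DAC, too few to show a change, and HOXA7 had 19 and 16, a ratio of 0.830 (interval 0.399 to 1.70). HOXA3 had 55 and 83 reads, a ratio of 1.49 (interval 1.04 to 2.13, counting error only), and did not pass the test (0.12, adjusted p = 0.778). Of the 10 members 5 lay higher with DAC without overlap and none lower, where 29.9% and 26.4% of the genes did. Both DAC libraries and 1 DMSO library of this comparison are those with immunoglobulin reads, and without that DMSO library HOXA9 still rose, by 0.26. Among the markers COL1A1 of the stromal and epithelial list fell (-0.38, adjusted p = 0.0196), and it no longer passed without that library (-0.38). The part of this marker in the result was not tested.

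The DAC effects in the 2 cell lines differed for 5 of the 7 members when the difference itself was tested, and 49.3% of all genes tested differed, 20.9% upward in DAC-resistant cells and 28.4% downward. Given as the effect in DAC-resistant minus that in parental cells, the difference was 1.06 for HOXA5 (SE 0.23, adjusted p = 0.00948), 0.67 for PBX3 (SE 0.040, adjusted p = 3.72e-05) and 0.36 for HOXA9 (SE 0.052, adjusted p = 0.00151). It was 0.28 for HOXA10 (SE 0.042, adjusted p = 0.00189) and 0.24 for MEF2C (SE 0.051, adjusted p = 0.00777). For HOXA11 it was -0.02 (95% interval -0.27 to 0.22, adjusted p = 0.863) and for HOXA6 0.38 (interval -0.11 to 0.87, adjusted p = 0.167). All 5 passed with any 1 library left out and under each other scaling tried. HOXA5 also met the stricter rule, as did 10.6% of the genes. The median over the 7 was 0.36, beside -0.05 over all genes. All 12 monocytic markers differed in the same test, 3 upward and 9 downward, with a median of -0.89, led by CD14 (-2.89, adjusted p = 5.2e-05). The T and NK marker NKG7 (-1.45, adjusted p = 0.00268) differed downward too. So did COL1A1 of the stromal and epithelial list (-2.06, adjusted p = 1.32e-05). The same held for 3 of the 5 B and plasma cell markers tested, SDC1, JCHAIN and CD79B (-0.97 to -0.68). The erythroid marker GATA1 (-1.87) and KRT8 of the stromal and epithelial list (-0.88) passed the filter only through parental cells with DAC. Both were highest there, so their tests decide nothing. The part of these markers in the result was not tested. The 3 low members did not pass the test (HOXA3 0.17, HOXA7 0.17 and MEIS1 -0.12, adjusted p = 0.477, 0.469 and 0.201).

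**Figure D3:**
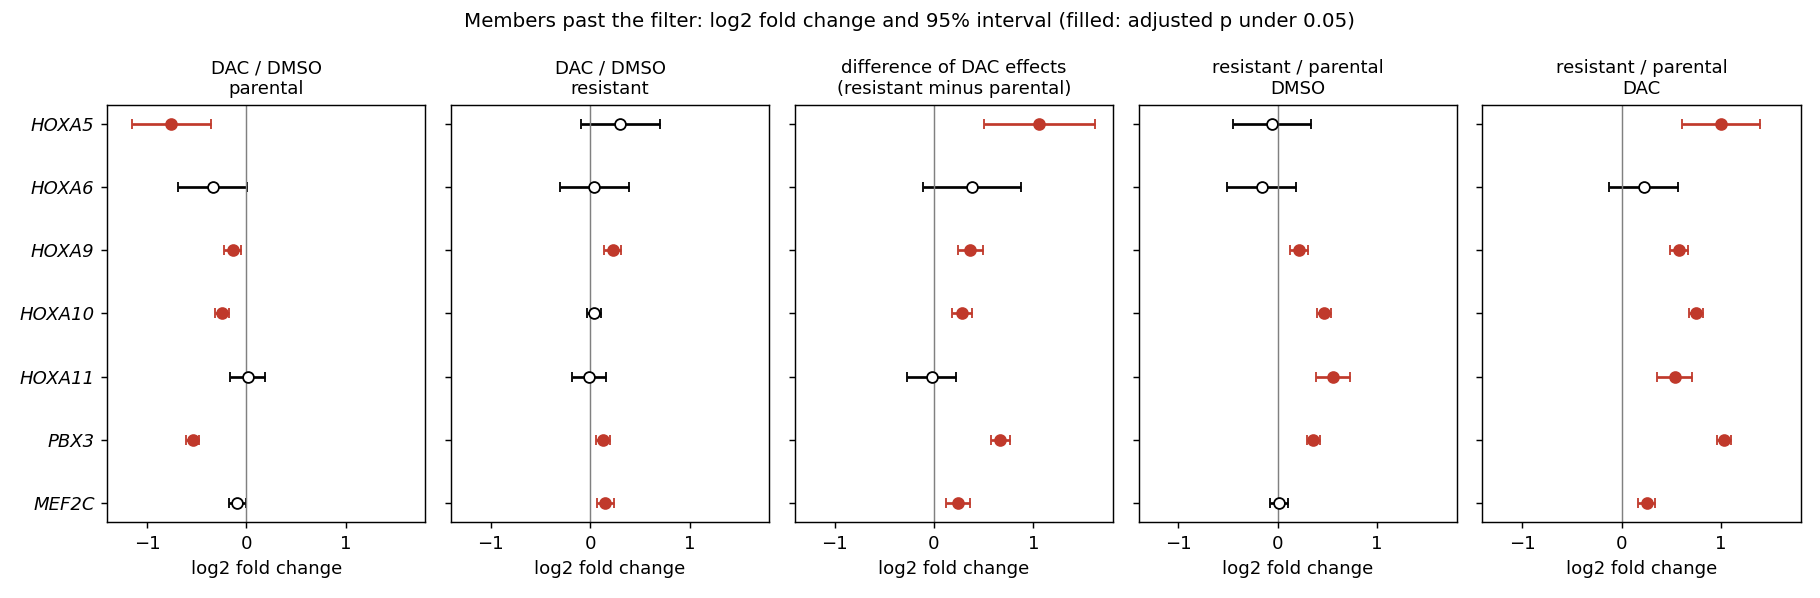
Log2 fold change with its 95% interval (horizontal axis) for the 7 members tested, with 1 panel per comparison. Filled red points passed the test and open points did not, and PBX3 and HOXA9 are filled in all 5 panels, below 0 for DAC in parental cells and above 0 in the other 4.

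**Figure D4:**
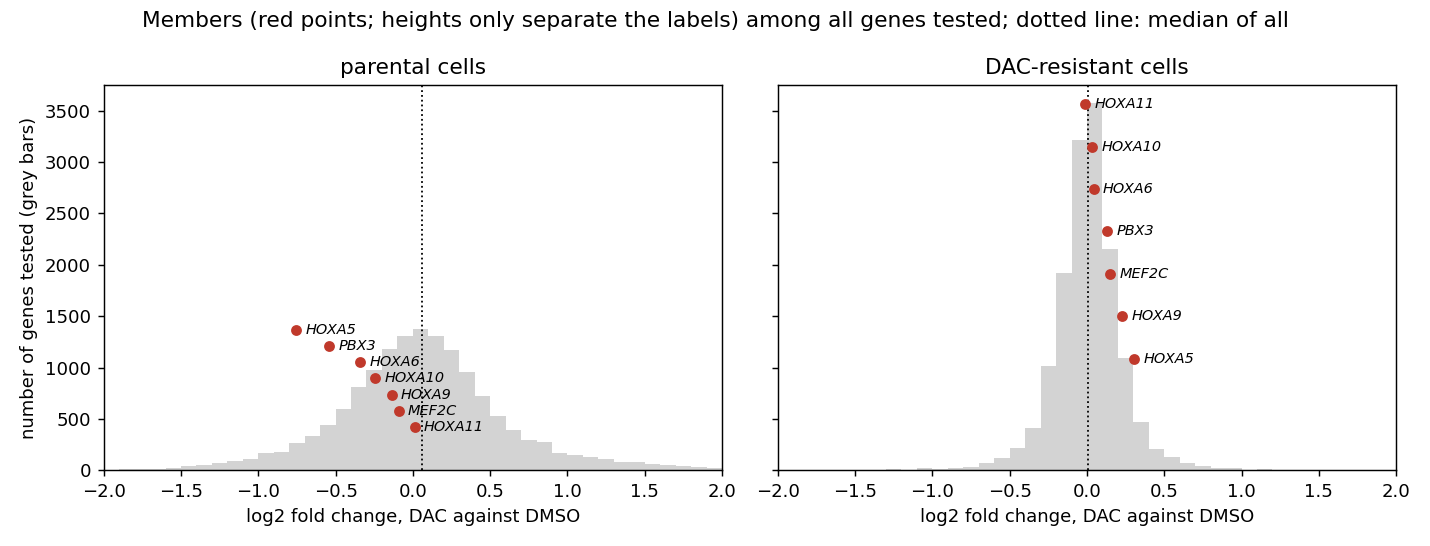
Number of genes tested by their log2 fold change with DAC (grey, vertical axis) in parental and DAC-resistant cells, between -2 and 2, with members as red points whose height carries no value. The dotted line is the median of all genes, 0.06 on the left and 0.01 on the right, and in parental cells all 7 members lie to its left, from -0.76 for HOXA5 to 0.01 for HOXA11.

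With DMSO only, DAC-resistant cells were compared with parental cells to see where the set stood before any new dose. Of the 7 members tested, 4 were higher in DAC-resistant cells (HOXA11, HOXA10, PBX3 and HOXA9) and none lower, where 57.5% of the genes tested differed, 31.3% being higher and 26.2% lower. HOXA11 was higher by 0.56 (SE 0.072, adjusted p = 0.000698) and HOXA10 by 0.46 (SE 0.030, adjusted p = 3.03e-05), at 153% and 140% of the parental means. PBX3 was higher by 0.36 (SE 0.028, adjusted p = 7.61e-05) and HOXA9 by 0.21 (SE 0.037, adjusted p = 0.00271), at 129% and 116%. HOXA5 (-0.06, 95% interval -0.45 to 0.34), HOXA6 (-0.16, interval -0.51 to 0.19) and MEF2C (0.01, interval -0.07 to 0.10) did not pass, with adjusted p = 0.79, 0.376 and 0.803. The median was 0.21, beside 0.02 over all genes. The stricter rule was met by no member and by 8.73% of the genes. Without the DMSO library that holds immunoglobulin reads, HOXA9 (0.18, adjusted p = 0.0177), HOXA10 (0.45, adjusted p = 0.000527), HOXA11 (0.52, adjusted p = 0.00638) and PBX3 (0.33, adjusted p = 0.00082) were still higher. Of the 12 monocytic markers 8 were lower and 1 higher in DAC-resistant cells here, with a median of -0.49, led by ITGAM (-1.404, adjusted p = 1.2e-05) and LYZ (-1.31, adjusted p = 0.000123). Summed stromal and epithelial markers stood at 6.32 to 6.40 against 0.754 to 0.869 FPKM. SDC1 and JCHAIN of the B and plasma cell list were higher (1.01 and 0.93), and NKG7 was lower (-1.06). The part of these markers in the result was not tested. Under quantile normalization HOXA9 no longer passed (0.08, adjusted p = 0.189).

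MEIS1 and HOXA7 moved the other way. Summed over 2 libraries, MEIS1 had 85 reads in parental and 2 in DAC-resistant cells, a ratio of 0.0237 with a 95% exact interval of 0.00282 to 0.0882 (counting error only). HOXA7 had 65 and 19 reads, a ratio of 0.294 (interval 0.167 to 0.497). In the fit without a filter both fell, MEIS1 by 0.16 (SE 0.037, adjusted p = 0.0289) and HOXA7 by 0.34 (SE 0.087, adjusted p = 0.0437), on a scale that understates such changes. Both calls depended on single libraries. With 1 library left out at a time, HOXA7 passed in 0 of 8 cases (adjusted p = 0.054 to 0.176) and MEIS1 in 4 of 8, failing without either DMSO library of the DAC-resistant cells (adjusted p = 0.114 and 0.0996) or either of their DAC libraries (adjusted p = 0.0594 and 0.0595). In a fit of the recovered reads (limma voom) the adjusted p was 0.00191 for MEIS1 and 0.038 for HOXA7. HOXA3 had 92 and 55 reads, a ratio of 0.602 (interval 0.423 to 0.850), and did not pass the test (-0.15, adjusted p = 0.361). Over all 10 members, 4 lay higher and 4 lower without overlap, where 41.7% and 36.9% of the genes tested did.

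Under DAC the cell lines were compared in the same way. Of the 7 members, 6 were higher in DAC-resistant cells (PBX3, HOXA5, HOXA10, HOXA9, HOXA11 and MEF2C) and none lower, where 67% of the genes tested differed, 32% being higher and 35.1% lower. PBX3 was higher by 1.03 (SE 0.028, adjusted p = 5.32e-07), at 207% of the parental mean, and HOXA5 by 1.00 (SE 0.16, adjusted p = 0.00162), at 243%. These 2 met the stricter rule, as did 14.5% of the genes. HOXA10 was higher by 0.74 (SE 0.030, adjusted p = 2.22e-06), HOXA9 by 0.58 (SE 0.037, adjusted p = 1.74e-05), HOXA11 by 0.53 (SE 0.072, adjusted p = 0.000635) and MEF2C by 0.25 (SE 0.036, adjusted p = 0.000786). HOXA6 did not pass (0.22, 95% interval -0.13 to 0.57, adjusted p = 0.22). The median was 0.58, beside -0.03 over all genes. MEIS1 fell, with 132 reads in parental and 1 in DAC-resistant cells, a ratio of 0.00666 with an exact interval of 0.000167 to 0.0377 (counting error only), and by 0.28 on the fitted scale (SE 0.037, adjusted p = 0.0026). All 6 higher members and MEIS1 passed with any 1 library left out. HOXA7 had 33 and 16 reads, a ratio of 0.426 (interval 0.219 to 0.797), and did not pass the test (-0.18, adjusted p = 0.213). HOXA3 had 69 and 83 reads, a ratio of 1.06 (interval 0.759 to 1.48; 0.02, adjusted p = 0.965). Over the 10 members, 6 lay higher and 2 lower without overlap, where 39.6% and 43.4% of the genes did. Both DAC-resistant libraries here hold immunoglobulin reads. Of the 12 monocytic markers 10 were lower and 1 higher, with a median of -1.32, led by LYZ (-3.57, adjusted p = 9.81e-07) and CD14 (-3.32, adjusted p = 2.24e-06). The T and NK marker NKG7 (-2.51, adjusted p = 2.13e-05) was lower as well, as was the B cell marker CD79B (-0.85). The erythroid marker GATA1 (-2.01) and KRT8 of the stromal and epithelial list (-0.95) passed the filter only through parental cells with DAC. Both were highest there, so their tests decide nothing. The part of any of these in the differences was not tested. Each comparison of cell lines shares its parental libraries with the comparison of DAC and DMSO in parental cells.

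Along the HOXA cluster the level was concentrated at the posterior end. The 10 HOXA genes analysed here summed in parental cells to 83.0 and 82.5 FPKM under DMSO and to 69.3 and 69.0 under DAC, and in DAC-resistant cells to 104.4 and 106.5 under DMSO and to 115.3 and 116.9 under DAC. HOXA9, HOXA10, HOXA11 and HOXA13 made up 90.6% to 94.5% of that sum. HOXA13, the last gene of the cluster, stood at 10.4 and 10.9, 6.56 and 6.70, 15.9 and 15.9, and 16.8 and 17.8 FPKM, in the same order of groups as HOXA9. In parental cells it fell by 0.61 under DAC (SE 0.043, adjusted p = 4.46e-05) and was higher by 0.54 (adjusted p = 7.5e-05) with DMSO and by 1.26 (adjusted p = 1.18e-06) with DAC in DAC-resistant cells.

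**Figure D5:**
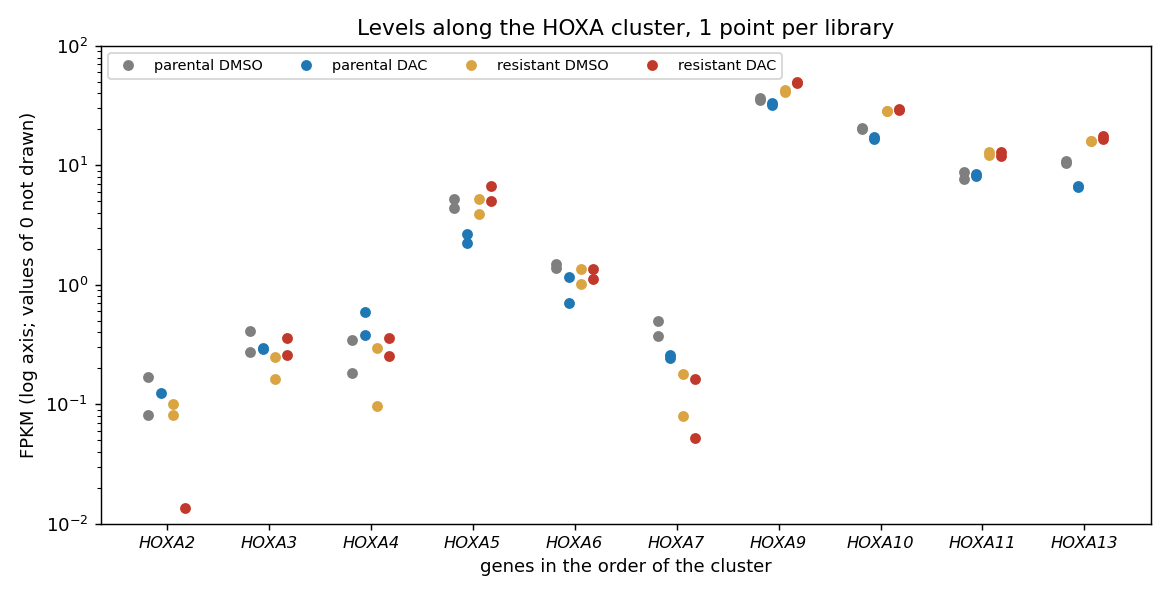
Level of the 10 HOXA genes analysed, in FPKM (vertical log axis, values of 0 not drawn) in their order along the cluster, with 1 point per library and a colour per group. HOXA9, HOXA10, HOXA11 and HOXA13 lie above 6 FPKM in every library, while HOXA2, HOXA3, HOXA4 and HOXA7 lie below 1 FPKM.

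Of the other genes of the cluster, antisense and long noncoding RNAs included, 5 of the 9 analysed here were tested. With DAC in parental cells none rose and 2 fell (HOXA13 and HOTTIP, a long noncoding RNA at the HOXA13 end), with a list median of -0.0033. Over all genes 33.6% rose and 24.1% fell, with a median of 0.06. With DMSO, DAC-resistant cells had higher HOXA13 and HOXA10-AS (0.49, adjusted p = 0.0187) and lower HOTAIRM1 (-0.43, adjusted p = 0.0126) and HOTTIP (-0.42, adjusted p = 0.0137). Of all genes tested 31.3% were higher and 26.2% lower in that comparison. HOTAIRM1 is a long noncoding RNA of the cluster. Without the DMSO library that holds immunoglobulin reads HOXA10-AS (0.49) and HOTTIP (-0.38) no longer passed, though their changes stayed about as large. The neighbouring gene SKAP2, an adaptor protein gene outside the cluster, fell by 0.24 in parental cells under DAC (adjusted p = 0.00204) and did not pass between the cell lines with DMSO (0.04).

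In the other HOX clusters most genes did not reach the level to be tested. Of 28 HOXB, HOXC and HOXD genes 6 were tested, and the 9 HOXD genes never exceeded 0.437 FPKM. With DMSO 5 of the 6 were lower in DAC-resistant cells, where 26.2% of all genes were lower and 31.3% higher, led by HOXB7 (-1.29, adjusted p = 0.00132) and HOXB3 (-1.15, adjusted p = 0.000104), and HOXC4 was higher (1.16). HOXC4 passed the filter only through DAC-resistant libraries, and HOXB6, among the 5, only through parental ones. The filter thus favoured the direction of these genes, and their tests decide nothing. HOXB4, a gene of blood stem cells, stood at 4.77 and 5.02 FPKM in parental and 1.85 and 2.61 in DAC-resistant cells with DMSO. The list median was -0.89, beside 0.02 over all genes. With DAC in parental cells HOXB3 was the gene that fell, by 0.39 (adjusted p = 0.0133) and none rose, and in DAC-resistant cells none passed in limma.

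Among other TALE genes, which encode the class of partners that MEIS1 and PBX3 belong to, 6 of the 8 analysed here were tested. With DAC in parental cells 5 rose and none fell, led by MEIS2 (0.48, adjusted p = 0.00619) and TGIF1 (0.47, adjusted p = 0.00529), with a list median of 0.41. Over all genes 33.6% rose and 24.1% fell, with a median of 0.06. Under quantile normalization the counts were 3 and 1. With DMSO, PBX2 (0.60, adjusted p = 4.97e-06) was higher in DAC-resistant cells, and MEIS2 (-0.74, adjusted p = 0.000836) and TGIF1 (-0.71, adjusted p = 0.000799) were lower. PBX2, the most abundant of them, stood at 36.9 and 37.7 FPKM in parental and 57.2 and 57.1 in DAC-resistant cells with DMSO. MEIS3 did not pass in this comparison (-0.27, adjusted p = 0.157). With DAC in DAC-resistant cells PBX2 rose by 0.21 (adjusted p = 0.00538).

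The genes of the KMT2A complex and of the elongation machinery that KMT2A fusions recruit, 25 of 25 tested, mostly rose with DAC in parental cells. There 16 rose and 1 fell, where 33.6% and 24.1% of all genes did, with a median of 0.18 beside 0.06 over all genes, and under quantile normalization the counts were 9 and 1. ELL2 (0.76, adjusted p = 7.02e-05) and ELL (0.50, adjusted p = 0.000451), elongation factors, rose most. PSIP1, which tethers the KMT2A complex to chromatin, was the gene that fell (-0.59, adjusted p = 1.95e-05), from 37.9 and 37.2 to 25.3 and 23.9 FPKM, and the difference of its DAC effects between the cell lines was 0.82 (adjusted p = 3.45e-05). PSIP1 was the only gene of the list to differ upward in that test, while 13 of 25 differed downward (7 under quantile normalization) beside 28.4% of all genes, with a median of -0.24 beside -0.05 over all genes. KMT2A itself rose by 0.22 (adjusted p = 0.0318) in parental cells, while MLLT3 (0.08, adjusted p = 0.375), MEN1 (0.16, adjusted p = 0.12) and DOT1L (0.08, adjusted p = 0.174) did not pass. With upper-quartile scaling or quantile normalization KMT2A no longer passed (adjusted p up to 0.152 over the scalings). With DMSO, 10 were higher and 1 lower in DAC-resistant cells, where 31.3% and 26.2% of all genes were. The counts were 9 and 5 under quantile normalization, 8 and 5 with upper-quartile scaling and 15 and 1 with TPM. Higher were, among others, WDR5 (0.61, adjusted p = 8.66e-05), the menin gene MEN1 (0.48, adjusted p = 0.002) and the H3K79 methylase gene DOT1L (0.40, adjusted p = 0.000319), while KMT2A (0.17, adjusted p = 0.0753) and MLLT3 (0.15, adjusted p = 0.106) did not pass. With DAC, 9 were higher and 12 lower in DAC-resistant cells, where 32% and 35.1% of all genes were. With TPM those counts were 11 and 6. The reads of KMT2A and MLLT3 sum normal and fused alleles.

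Of 20 other genes known as targets of KMT2A fusions 17 were tested. With DAC in parental cells 8 fell and 4 rose, where 24.1% and 33.6% of all genes did, with a median of -0.10 beside 0.06 over all genes. SKIDA1 (-0.92, adjusted p = 4.74e-05) and BCL2 (-0.88, adjusted p = 2.56e-06), which blocks apoptosis, fell most, and TRIB2 (1.46, adjusted p = 1.22e-05) and RUNX1 (0.56, adjusted p = 1.89e-05) rose most. With DMSO 8 were higher and 5 lower in DAC-resistant cells, beside 31.3% and 26.2% of all genes, led by SOX4 (1.10, adjusted p = 1.4e-05) and the receptor kinase gene FLT3 (1.09, adjusted p = 3.71e-05) upward and RUNX2 (-1.24, adjusted p = 1.36e-05) and LMO2 (-0.70, adjusted p = 2.67e-06) downward. Under quantile normalization those counts were 3 and 6, so the direction of this list turns with the scaling. With DAC 10 were higher and 6 lower, beside 32% and 35.1% of all genes, among them FLT3 (1.36, adjusted p = 8.19e-06) and MYC (0.87, adjusted p = 2.43e-06). The difference of DAC effects passed for 7 upward and 4 downward, beside 20.9% and 28.4% of all genes, upward led by MYC (0.79, adjusted p = 4.6e-05) and SKIDA1 (0.78, adjusted p = 0.0007) and downward by TRIB2 (-1.51, adjusted p = 8e-05).

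The Polycomb genes, whose complexes keep silent HOX genes silent, were tested for 13 of 13. With DAC in parental cells 5 rose, led by RNF2 (0.79, adjusted p = 4.37e-05) and JARID2 (0.46, adjusted p = 0.000383), and RING1 fell (-0.17, adjusted p = 0.028), while quantile normalization gave 2 and 3. Over all genes 33.6% rose and 24.1% fell, and the list median was 0.09 beside 0.06. With DMSO 6 were higher in DAC-resistant cells (31.3% of all genes were), led by JARID2 (1.37, adjusted p = 3.93e-06), from 6.96 and 7.00 to 19.1 and 20.2 FPKM, and 2 were lower, CBX7 (-0.87, adjusted p = 0.000667) and EZH1 (-0.31, adjusted p = 0.0154). Those counts were 4 and 4 with upper-quartile scaling and 4 and 3 under quantile normalization. Without the DMSO library that holds immunoglobulin reads EZH1 (-0.23) and EZH2 (0.21), which was among the 6 higher genes, no longer passed.

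The genes whose pattern over the 8 libraries was most like that of HOXA9, by Pearson correlation of log2(FPKM + 1), were HBS1L (0.996), FAM49B (0.995) and PAG1 (0.995). For MEIS1 they were FCAR (0.998), the receptor for IgA on myeloid cells, SCAMP1-AS1 (0.997) and TNFSF13 (0.995). These values describe 8 libraries in 4 groups that share their treatments, and the genes were picked as the highest of all genes tested.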

How the data were processed

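RNA-seq was done on 8 libraries of THP-1 cells in 4 groups of 2. According to the study, reads were trimmed with Cutadapt (version 1.9.1 in the submitters' processing notes), aligned to hg38 with HISAT2 (2.1.0) and counted per gene with HTSeq (0.13.5) on Ensembl genes, and whether the counting used the strand is not given in the sources used here. The authors deposited FPKM values multiplied by 1000, together with values for repeat families that were not used here. Columns were assigned to samples by their names.

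Deposited values were divided by 1000. The 14899 genes that reached 1 FPKM in 2 or more of 8 libraries were fitted as 4 group means with limma 3.58.1 (R 4.3.3) on log2(FPKM + 1), with variances moderated along a trend, and p-values were adjusted by Benjamini-Hochberg over all genes tested. "Rose" and "fell" mean an adjusted p under 0.05. On this scale changes of genes near or below 1 FPKM are understated. For HOXA3, HOXA7 and MEIS1 a fit without the filter served, which was chosen after seeing the data. Intervals of read ratios are exact conditional intervals. For a group of 2 against another of 2, the smallest p of an exact two-sided permutation test is 0.333, and limma therefore borrows the spread of other genes.

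Reads were recovered with GENCODE release 44 exon lengths. With these lengths 86.9% of the gene values above 0 were whole within 0.02 reads, and steps between libraries settled most other genes, which left 152 of 39592 genes approximate. The recovered reads of a library came to between 104.0% and 104.5% of the total by which it had been scaled. They set the precision of each value.

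The members, the 7 lists of 105 related genes and the 5 lists of 39 markers were chosen with earlier results of these data known. Genes named are the members, up to 2 rises and 2 falls per list and comparison, KMT2A, MLLT3, MEN1 and DOT1L, and the 3 genes most like HOXA9 and MEIS1. A few others (HOXB4, MYC, FLT3 with DAC, and markers) were named after their values were seen. Some genes of these lists are not reported here. Alternatives were another pseudocount (0.1), no filter, a mean of at least 5 FPKM, rescaling to TPM, upper-quartile and quantile scaling, a replicate block, a fit of only those libraries that a comparison uses, variances without a trend, voom on recovered reads, the stricter rule of p at most 0.01 with a log2 fold change of 1, and leaving out each library. Counts of the related genes without the DMSO library that holds immunoglobulin reads were added after seeing the data. The fits were tested on simulated data. Promoter sequences are from RefSeq (GRCh38.p14).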

Additional observations from a re-analysis of the deposited data

Results flagged for a closer look

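For 5 members the effect of DAC differed between DAC-resistant and parental cells in a test of the difference itself (limma, adjusted p under 0.05 over all genes). Given as the effect in DAC-resistant minus that in parental cells, on the log2 scale, the differences were 1.06 for HOXA5 (95% interval 0.50 to 1.62), 0.67 for PBX3 (0.57 to 0.77), 0.36 for HOXA9 (0.24 to 0.49), 0.28 for HOXA10 (0.18 to 0.38) and 0.24 for MEF2C (0.12 to 0.36). PBX3 and HOXA9 passed the test in opposite directions in the 2 cell lines. HOXA5 and HOXA10 passed only in parental cells and MEF2C only in DAC-resistant cells. With 1 library left out at a time, the rises in DAC-resistant cells passed in 0 of 8 cases for PBX3 and MEF2C and in 5 of 8 for HOXA9, and the falls in parental cells in 7 of 8 for HOXA5, 6 of 8 for HOXA9 and 8 of 8 for PBX3 and HOXA10. MEF2C also passed in parental cells under 4 of 18 alternatives, all of them other scalings or voom. Of all genes tested, 49.3% differed in the same test. So did all 12 monocytic markers, 3 upward and 9 downward, and their part in the differences of the members was not tested.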

How the results depend on the processing

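Of 850 fold changes of members under alternatives, 758 kept their direction and their side of the threshold, 55 no longer passed, 10 newly passed and 27 changed sign while passing neither as reported nor under the alternative. None that had been called changed sign. The count of members changed by DAC in DAC-resistant cells, 3 of 7, was the least stable. It was 1 with the replicate number as a block (replicate block), 0 with only the libraries compared, 0 with variances without a trend, 1 without a filter on low values and 0 to 1 with a library left out. Under the stricter rule (unadjusted p up to 0.01 with a log2 change of 1 or more in size) the counts were 0 for DAC in parental cells, 0 for DAC in DAC-resistant cells, 0 between the cell lines with DMSO, 2 between them with DAC and 1 for the difference of effects. Replicate numbers did not pair the libraries, with correlations of deviations between groups of -0.022 to 0.020, and the replicate block left the other counts at 4, 4, 6 and 5. With the block, MEIS1 (adjusted p = 0.06) and HOXA7 (adjusted p = 0.0802) no longer passed between the cell lines with DMSO. MEF2C with DAC in parental cells passed with TPM, quantile or upper-quartile scaling or voom (-0.20 to -0.10), and HOXA6 with quantile (-0.53) or upper-quartile scaling (-0.41). The cause was not tested.

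Counts over all genes at an adjusted p under 0.05 ranged from 5181 to 9001 for DAC in parental cells (8593 as reported), 434 to 2920 in DAC-resistant cells (1673), 5161 to 9099 between the cell lines with DMSO (8574), 5698 to 10212 with DAC (9989) and 4732 to 7808 for the difference (7350). Under the stricter rule they ranged from 573 to 2211 (1387), 6 to 107 (35), 517 to 2370 (1300), 908 to 3360 (2154) and 721 to 2262 (1583). Of the calls for DAC in parental cells 58.2% were higher, and 45.1% under quantile normalization. For DAC in DAC-resistant cells 52.4% were higher, and 65.9% with TPM. For the difference 42.4% were higher, and 53.8% under quantile normalization. Quantile normalization shifted the median of all genes by -0.11 for DAC in parental cells and by 0.10 for the difference, and TPM by 0.11 between the cell lines with DAC. Relative to the median, the DAC effect in parental cells was -0.60 for PBX3 and -0.20 for HOXA9 as reported and -0.57 and -0.17 under quantile normalization. Depth limits HOXA3, HOXA6, HOXA7 and MEIS1, with 71 reads or fewer per library.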

Other observations

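Of the 28 HOXB, HOXC and HOXD genes 4 were at 0 reads in all libraries. HOXC4 stood at 0.205 and 0.0715 FPKM in parental cells under DMSO and at 0.184 and 0.118 under DAC, and at 1.40 and 1.71 in DAC-resistant cells under DMSO and at 1.76 and 2.45 under DAC, so its 4 DAC-resistant libraries lay above all parental ones. HOXB6 lay the other way, at 1.10 to 1.93 FPKM in the parental and 0.188 to 0.280 in the DAC-resistant libraries. EVX1, which flanks the HOXA cluster beyond HOXA13, was at 0.0325 FPKM or less in the parental libraries and at 0 in all 4 DAC-resistant ones.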
